A study of Mus musculus with 10 samples.

Results

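The vector control tumors of a mouse melanoma model fell on either side of a Pmel level of 500 TPM, and these 5 tumors, of 10 in the series, are described here tumor by tumor. Pmel encodes the protein that forms the fibrils on which melanin is laid down. The tumors were chosen by their measured Pmel level. Vector tumors 3 and 5 lay below that level and are called the Pmel-low tumors, with their values always given in that order. Vector tumors 1, 2 and 4 lay above it and are called the pigmented tumors, again in that order, although pigment itself was not measured. Just inside and just outside the division stood vector tumor 5, at 274 TPM, and vector tumor 4, at 1107 TPM. Because a measured transcript divided the tumors, all differences between the 2 and the 3 are descriptions, and no test, mean or error over them is given. With 2 against 3 tumors, each value is shown instead.

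The tumors grew under the skin of C57BL/6 mice, female and 7 to 8 weeks old at injection of B2905-M4 cells, a mouse melanoma line. The vector cells carried a control construct, and the other group of 5 tumors came from cells made to overexpress Adamts7, whose product is a metalloproteinase that cuts matrix proteins outside the cell. The labels give no promoter or clone for either construct and do not say whether each tumor grew in a mouse of its own, and no tumor received immunotherapy. Of the Adamts7 tumors, 2 were taken at day 35 and 3 at day 45. Of the vector tumors, which grew slowly, 3 were taken at day 45 and 2 at day 50, and the labels tie no day to a tumor, so day of harvest and the division by Pmel cannot be told apart. RNA of whole tumors was sequenced as 1 library per tumor, and expression is in TPM, a transcript abundance per length scaled within each library. TPM keeps no depth, so the depth of each library is unknown. Of 29890 listed genes, 21863 to 23859 had a value above 0 per vector tumor, and the Pmel-low pair had the most, 23504 and 23859. The tumor labelled Adamts7 5 had only 18.2 TPM of Adamts7 against 74.8 to 96.0 TPM in the rest of its group. Ranges of the Adamts7 tumors below include it. As a check of the description, all 5 vector tumors held Sox10, a melanocyte lineage factor, and the Pmel-low pair exceeded all other 8 tumors in Cd3e, Cd8a and Ifng, which mark T cells and their activation. These genes were picked with their values known.

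Melanocytes and pigmented melanoma cells make melanin in melanosomes, and the transcription factor MITF, itself under control of SOX10, drives the genes of the pigment enzymes and melanosome proteins. Loss of this program with kept neural crest genes is a known state of melanoma cells. T cells and natural killer cells that enter a tumor release interferon-gamma, which acts on genes of antigen presentation, on guanylate-binding proteins and on the chemokines that bind CXCR3. Whole-tumor RNA mixes all of these cells, and fewer cells of a type cannot be told apart in it from less RNA per cell.

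The promoters of members of these 2 programs are shown because the members differed together, in opposite directions, across the 5 tumors. They come from the RefSeq table for GRCm38.p6, while the expression values were made on mm39, and each runs 250 bases up to the transcription start, 5′ to 3′ on the strand of the gene. Capitals mark the letters found on either strand of the E-box CATGTG, which MITF can bind, of the interferon-stimulated response element GAAANNGAAA, or of the gamma-activated site TTCNNNGAA. Tyrp1 lies on the plus strand (chr4:80833963-80834212) and Dct on the minus strand (chr14:118052247-118052496), and both encode melanin enzymes. Cxcl10, a ligand of CXCR3, lies on the minus strand (chr5:92348890-92349139), and Gbp5, a guanylate-binding protein, on the plus strand (chr3:142496684-142496933).
Tyrp1: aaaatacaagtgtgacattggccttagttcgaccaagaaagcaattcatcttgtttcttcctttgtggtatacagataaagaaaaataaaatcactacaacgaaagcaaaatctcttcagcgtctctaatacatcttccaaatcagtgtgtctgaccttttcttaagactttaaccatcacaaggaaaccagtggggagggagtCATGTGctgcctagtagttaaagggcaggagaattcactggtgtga
Dct: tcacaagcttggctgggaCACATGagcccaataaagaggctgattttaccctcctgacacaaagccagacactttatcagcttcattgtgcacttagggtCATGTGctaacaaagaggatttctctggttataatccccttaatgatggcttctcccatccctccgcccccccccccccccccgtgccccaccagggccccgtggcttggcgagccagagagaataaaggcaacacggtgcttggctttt
Cxcl10: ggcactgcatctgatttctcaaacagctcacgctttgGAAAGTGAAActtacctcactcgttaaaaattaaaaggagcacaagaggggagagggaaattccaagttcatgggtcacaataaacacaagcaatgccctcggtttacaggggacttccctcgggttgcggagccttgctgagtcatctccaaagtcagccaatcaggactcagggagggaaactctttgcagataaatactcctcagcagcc
Gbp5: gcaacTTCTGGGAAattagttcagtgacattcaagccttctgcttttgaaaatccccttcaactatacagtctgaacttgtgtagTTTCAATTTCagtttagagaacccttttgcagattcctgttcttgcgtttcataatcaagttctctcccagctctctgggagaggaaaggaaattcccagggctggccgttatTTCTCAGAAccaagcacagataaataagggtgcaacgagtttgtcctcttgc
The E-box of Tyrp1 began 46 bases before the start, and those of Dct 150 and 232 bases before it. In Cxcl10 the response element lay 213 bases before the start. Gbp5 held a response element at 165 bases and gamma-activated sites at 245 and 52 bases, which did not overlap it. Tspan10, a tetraspanin of pigment cells, had an E-box 21 bases before its start, and Cxcl9, the other strongly differing CXCR3 ligand, held neither interferon motif in this window. Among 12 pigment genes with an entry, 7 (58.3%) held the E-box, against 9.47% of the 10726 measured genes with an entry. Among 15 genes induced by interferon-gamma, 11 (73.3%) held the response element and 7 (46.7%) the gamma-activated site, against 3.46% and 7.09% of all. The E-box was in 15.6% of all genes lower in the Pmel-low tumors by at least 1 and in 13.4% of those higher. The response element was in 2.4% of the lower and 8.52% of the higher genes, and the gamma-activated site in 6.31% and 9.84%. Pmel, Mlana, Slc45a2, Rab38, Bace2 and Gpr143 were not in the table. These matches describe letters, not binding.

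Across the 15524 genes that averaged 1 TPM or more in the vector tumors, the Pmel-low tumors differed from the pigmented tumors more than tumors on the same side differed from each other. Differences are given as the distance between the nearest tumors on log2(TPM + 1), that is from the lower Pmel-low tumor to the highest pigmented tumor for a gene that was higher, and the reverse for a gene that was lower. A distance of 1 is close to a factor of 2 for well expressed genes and understates low ones. Both Pmel-low tumors were higher by a distance of at least 1 in 1201 genes (7.74%) and lower in 455 (2.93%). By a distance of at least 2, 241 genes (1.55%) were higher and 56 (0.361%) lower. Without regard to size, 5179 genes (33.4%) were higher without overlap and 4854 (31.3%) lower, and the median distance of all genes was 0. These shares are the background for each count below. Counts for gene lists are over members that reached the mean of 1 TPM, 675 of 747 in 63 lists, and a member that reached it only through the tumors where it was high had to differ.

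**Figure D1:**
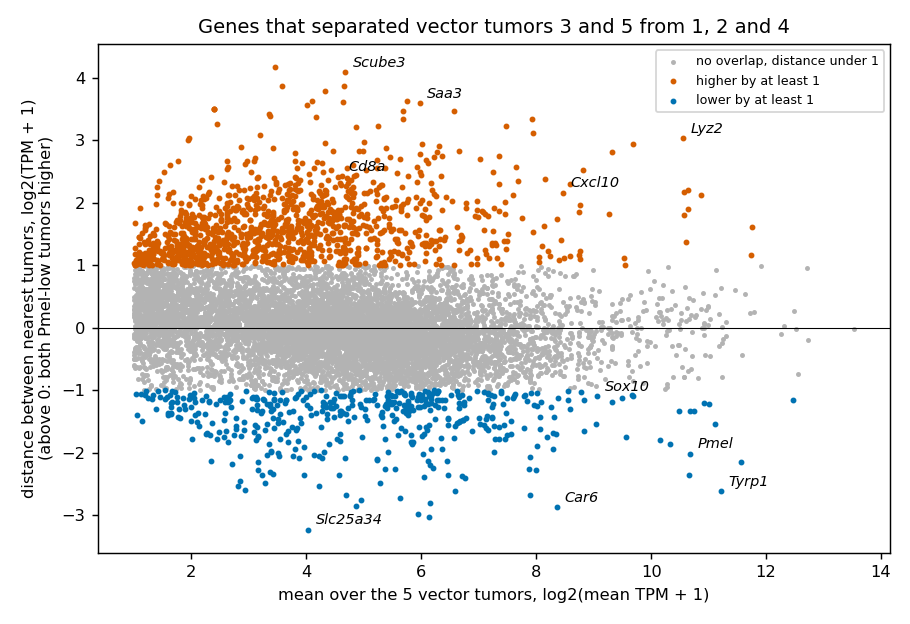
Distance between the nearest tumors (y axis, log2(TPM + 1), above 0 where both Pmel-low tumors were higher) against the mean over the 5 vector tumors (x axis, log2) for genes without overlap, 1 point per gene. Orange points are the 1201 genes higher and blue points the 455 genes lower by at least 1, and named points are genes given in the text.

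Only 680 genes (4.38%) differed by at least 1 between vector tumors 3 and 5, and 720 to 972 genes (4.64% to 6.26%) did so in a pair of pigmented tumors. Across the division the number per pair was 3075 to 4364 genes (19.8% to 28.1%), lowest for vector tumors 4 and 5. Spearman correlations across genes, which are not independent, were 0.967 within the Pmel-low pair, 0.961 to 0.967 among pigmented tumors and 0.856 to 0.903 between the sides. The Adamts7 tumors, which played no part in the division, lay near the pigmented side. Their correlations were 0.943 to 0.966 with pigmented tumors and 0.830 to 0.902 with Pmel-low tumors. Of the 1201 higher genes, 1148 (95.6%) were lower in every Adamts7 tumor than in either Pmel-low tumor, against 30.7% of all genes. Of the 455 lower genes, 413 (90.8%) were higher in every Adamts7 tumor, against 20.4% of all genes. Both sets were picked for extreme values in the Pmel-low pair, so high shares follow in part from that choice. Vector tumor 3 was the more extreme of the pair in 807 higher and 341 lower genes.

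Pigment genes were lower in the Pmel-low tumors as a group, and several of the most specific ones were close to absent in vector tumor 3. All 18 melanosome and melanin genes measured were lower without overlap, 14 by at least 1, with a median distance of -1.57. The list holds Pmel, so its direction follows in part from the division. Pmel stood at 2431, 4379.7 and 1107 TPM in the pigmented tumors, at 6.13 and 274 TPM in the Pmel-low tumors and at 3424 to 8389.9 TPM in the Adamts7 tumors. Tyrp1 had 4375, 3931 and 3104 TPM against 7.16 and 506 TPM, its nearest values 6.13-fold apart. Dct had 4959, 6374 and 3037 TPM against 6.49 and 683 TPM. The order was the same in each, with tumor 3 lowest, then tumor 5, then tumor 4. That full order, tumor 3 below 5 below 4 below the other pair, held in 15 of 18 pigment genes (83.3%), against 8.97% of all genes.

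Tyr, the rate-limiting enzyme of melanin synthesis, was at 206, 258 and 93.7 TPM on the pigmented side and at 0.21 and 29.02 TPM on the other. The melanosomal transporters Oca2 (99.4, 104 and 58.99 against 0.12 and 15.9 TPM) and Slc45a2 (191, 491 and 71.02 against 0.35 and 20.04 TPM) behaved alike. In none of the 3 did the sides overlap. Tspan10 was at 106, 184 and 51.9 against 0.5 and 12.8 TPM. Trpm1, a melanocyte channel, was at 247, 373 and 142 against 0.57 and 47 TPM. So vector tumor 5 kept pigment transcripts at a reduced level, whereas tumor 3 lay below 1 TPM for Tyr, Oca2, Slc45a2, Tspan10 and Trpm1. Genes of melanosome transport varied. Myo5a, the motor that carries melanosomes, was at 107, 125 and 78.5 against 61.7 and 57.5 TPM. Rab27a, its docking partner, was at 62.4, 90.8 and 41.2 against 12.9 and 21.3 TPM. Mlph, which links both, was at 162, 193 and 108 against 24.9 and 38.2 TPM. So Myo5a differed least and Mlph by more than 1.

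Lineage transcription factors were lower in part. Sox10, a factor of neural crest and melanocytes, was at 742, 662 and 689.8 TPM against 269 and 311 TPM, 2.13-fold apart at the nearest and present in each tumor. Mitf was at 285, 266 and 185 TPM against 20.7 and 53.01 TPM, 3.49-fold apart. So the factor nearest to the pigment enzymes differed more than the one above it. Pax3 (62.1, 63.2 and 44.6 against 23.1 and 29.3 TPM) and Tfap2a (57.7, 53.3 and 46.2 against 27.6 and 26.5 TPM), which act upstream in the lineage, were lower without overlap by less than 1. Of 11 lineage factors, 4 were lower and 2 higher without overlap, the latter being Snai2 (9.29, 8.28 and 10.97 against 17.97 and 16.2 TPM) and Mef2c, and 5 overlapped. The lower share is near the 31.3% of all genes, and only Mitf and Sox10 were lower by at least 1.

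**Figure D2:**
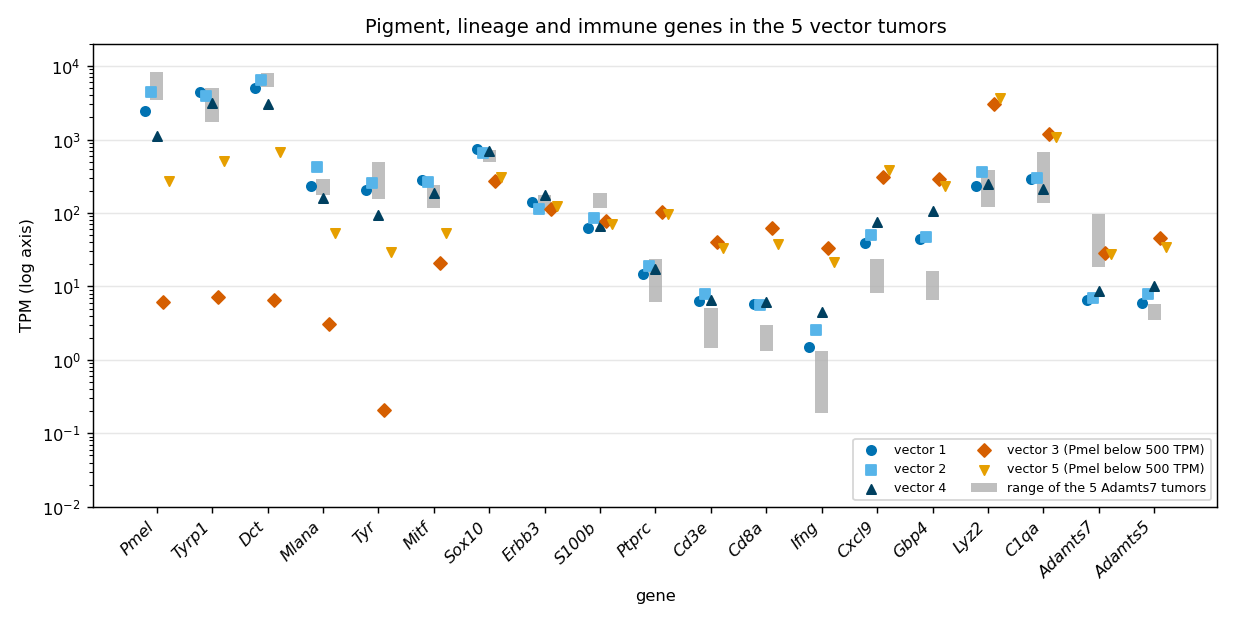
TPM (y axis, log scale) of 19 genes (x axis) in each vector tumor, 1 point per tumor, with grey bars for the range of the 5 Adamts7 tumors. Orange and yellow points, the Pmel-low tumors, lie below the blue points from Pmel to Sox10, among them for Erbb3 and S100b, and above them from Ptprc on.

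Division by Sox10 in the same tumor was added after the values were seen. Of the 18 pigment genes, 13 stayed lower without overlap and 2, Tyrp1 and Dct, stayed lower by at least 1, against 14 before. Of the rest, 4 overlapped and Atp7a, a copper transporter that supplies tyrosinase, became higher without overlap, by 0.19. Pmel per Sox10 was 3.27, 6.61 and 1.60 in the pigmented tumors and 0.0228 and 0.88 in the Pmel-low tumors, and Mitf per Sox10 was 0.384, 0.401 and 0.268 against 0.077 and 0.171. Tyr per Mitf overlapped, at 0.723, 0.973 and 0.507 against 0.0102 and 0.547, since tumor 5 was above tumor 4. Among all genes, 381 (2.45%) were lower by a larger distance than Sox10.

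Several other neural crest and glial genes were not lower with Sox10, although Ednrb, the endothelin receptor of melanoblasts, was, at 5.08, 6.15 and 3.48 against 2.72 and 2.39 TPM. Erbb3, a receptor of this lineage, was at 141, 114 and 174 TPM against 112 and 126 TPM. S100b was at 61.5, 84.7 and 65.5 against 76.8 and 71.3 TPM. The sides overlapped in both. Foxd3 and Cdh19 overlapped too. Egr2, a regulator of myelination, was higher, at 2.23, 4.99 and 2.83 against 16.5 and 21.6 TPM. In all, 2 of 10 Schwann and glial genes were higher by at least 1 and none was lower without overlap.

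Genes known from dedifferentiated, neural crest-like melanoma were in part higher, 5 of 19 by at least 1, with a list median of 0.43. Axl, a receptor tyrosine kinase, was at 51.1, 59.2 and 57.4 TPM against 233 and 222 TPM. Aqp1, a water channel, was at 227, 827 and 403 TPM against 3272 and 2912 TPM. Sox2, a stem cell factor, was at 8.03, 7.95 and 14.1 against 53.2 and 45.3 TPM. These genes are also expressed by endothelial, myeloid or glial cells, whose part in the values was not tested. Ngfr, the receptor most used to mark this state, was at 9.99, 13.5 and 20.99 against 28.8 and 43.6 TPM, a distance of 0.44. Sox9 was at 1.09, 1.28 and 0.65 against 2.38 and 2.72 TPM. Cd44, an adhesion receptor in the same list, was lower, at 208, 196 and 169.5 against 80.3 and 108 TPM.

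Receptors of the pigment lineage diverged. Mc1r, the melanocortin receptor that turns on MITF, was at 126, 101 and 81.04 TPM against 1.29 and 14.7 TPM. Met was at 156, 185 and 100.5 against 10.2 and 34.4 TPM. Fgfr1 was higher, at 8.09, 24.5 and 10.1 against 81.5 and 59.3 TPM, as was Kit by less than 1, at 2.65, 4.89 and 6.16 against 11.3 and 9.70 TPM. Among 14 targets of MAPK signaling 10 were lower without overlap, 2 by at least 1. Phlda1 was at 466, 529 and 422 TPM against 73.6 and 129.6 TPM. Dusp4, a phosphatase that limits ERK, was at 85.9, 109 and 79.5 against 32.8 and 37.9 TPM. The mean level of this list, log2(TPM + 1), was 6.35, 6.44 and 6.49 against 5.66 and 5.90.

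T cell transcripts were higher in both Pmel-low tumors throughout. T cells recognise antigen through a receptor on their surface. Every T cell gene measured (18 of 18) was higher by at least 1, with a median distance of 1.79. Cd3e, a signaling chain of that receptor, stood at 6.33, 7.98 and 6.46 TPM in the pigmented tumors, 40.4 and 33.3 TPM in the Pmel-low tumors and 1.44 to 5.10 TPM in the Adamts7 tumors. Cd3g was at 6.97, 9.93 and 9.20 against 88.5 and 69.1 TPM. Trac, the receptor's alpha constant region, was at 5.93, 8 and 7.59 against 57.2 and 46.3 TPM. No pigmented tumor came near the Pmel-low pair for any of the 3. Cd8a, the coreceptor of cytotoxic T cells, was at 5.70, 5.57 and 6.09 TPM against 62.8 and 37.2 TPM, nearest values 6.11-fold apart. Cd4, the coreceptor of helper T cells, was at 4.18, 3.85 and 2.24 against 11.5 and 17.3 TPM, 2.76-fold apart, and here vector tumor 5 was the higher of the pair.

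Effector genes of cytotoxic cells were higher with them, 14 of 14 by at least 1 at a median distance of 1.88. Ifng was at 1.5, 2.52 and 4.52 TPM against 33.3 and 21.5 TPM. Gzmb, a granule protease that triggers apoptosis, was at 2.05, 2.07 and 3.79 against 30.3 and 18 TPM. Prf1, the pore-forming protein, was at 2.10, 1.75 and 1.5 against 11.3 and 9.04 TPM. For each of the 3, vector tumor 3 was the highest and vector tumor 5 the next. Gzmc had the largest distance of the list, at 0.32, 7.33 and 7.58 against 79.1 and 90.9 TPM, with vector tumor 1 lowest of all. All 11 natural killer genes were higher without overlap, 7 by at least 1. Ncr1, a receptor nearly restricted to natural killer cells and related innate cells, was at 0.69, 1.14 and 1.54 against 7.66 and 7.17 TPM, whereas Klrd1 and Klrk1, which activated CD8 T cells share, were at 4.70, 6.43 and 6.30 against 66.2 and 42.7 TPM and 4.01, 9.83 and 9.60 against 61.8 and 50.5 TPM.

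Inhibitory receptors of lymphocytes followed, 9 of 11 by at least 1. Pdcd1, which encodes PD-1, was at 5.14, 3.77 and 3.74 TPM against 21.2 and 22.3 TPM. Lag3 was at 3.69, 5.31 and 3.02 against 23.01 and 22.3 TPM. Tigit was at 5.13, 3.96 and 4.60 against 18.8 and 25.8 TPM. No pigmented tumor approached either of the pair. Ligands of PD-1 were higher too, with Cd274, which encodes PD-L1, at 18.4, 24.1 and 23.7 against 78.2 and 72.4 TPM. Pdcd1lg2, which encodes PD-L2, was at 0.86, 1.86 and 0.91 against 33.96 and 13.1 TPM. Of 8 checkpoint ligands measured, 5 were higher and 3 lower without overlap. Regulatory T cell genes were higher in 7 of 9 by at least 1, led by Tnfrsf4 (4.94, 4.31 and 3.84 against 21.6 and 19.3 TPM). Foxp3, the factor that defines these cells, was at 0.95, 1.14 and 1.10 against 3.05 and 2 TPM, a distance of 0.49, and Capg of the same list was lower.

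Ratios within a tumor set T cell genes against each other. Cd8a per Cd3e was 0.9, 0.698 and 0.943 in the pigmented tumors and 1.55 and 1.12 in the Pmel-low tumors, without overlap. Cd8a per Cd4 overlapped, with vector tumor 5 below vector tumor 4. Foxp3 per Cd3e was lower, at 0.15, 0.143 and 0.17 against 0.0755 and 0.0601. Ifng per Cd3e overlapped (0.237, 0.316 and 0.7 against 0.824 and 0.647), with vector tumor 4 between the Pmel-low tumors, as did Gzmb and Pdcd1 per Cd3e. Per Ptprc, the common leukocyte antigen CD45, Cd3e overlapped as well, at 0.43, 0.416 and 0.369 against 0.393 and 0.349, and Ptprc itself was at 14.7, 19.2 and 17.5 TPM against 103 and 95.4 TPM. The ratios to Ptprc were chosen after the values were seen. Of the 18 T cell genes per Ptprc, 11 overlapped, 5 were higher without overlap (Cd3d, Cd3g, Trac, Trbc1 and Trbc2) and 2 lower (Cd5 and Thy1), none higher by 1 or more on the log2 scale. Trbc2, a receptor constant region, was at 0.507, 0.71 and 0.563 per Ptprc against 0.843 and 0.889. Because Ptprc differed along with the immune genes, and TPM is a share of each library, the part of leukocyte RNA in the other differences, lower genes included, was not tested.

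Genes induced by interferon-gamma were higher in the Pmel-low tumors without exception, and vector tumor 4 stood between the sides. All 21 measured members were higher without overlap, 14 by at least 1, at a median distance of 1.15. Cxcl10 was at 69.01, 69.4 and 147 TPM against 823 and 660.3 TPM. Cxcl9, which also binds CXCR3, was at 39.5, 50.5 and 76.2 against 312 and 390.5 TPM. Gbp5 was at 19.4, 19.4 and 36 against 148 and 126 TPM. For all 3, tumor 4 was the highest of the pigmented tumors. Irf1 was at 80.6, 94.2 and 120 against 297 and 244 TPM. Vector tumor 4 was the highest pigmented tumor in 20 of the 21 genes (95.2%), against 35.4% of all genes. The list mean, log2(TPM + 1), was 5.83 and 5.85 in vector tumors 1 and 2, 6.61 in tumor 4, 7.90 and 7.77 in the Pmel-low tumors and 4.14 to 5.09 in the Adamts7 tumors. Among signaling genes, the receptor Ifngr1 (39.2, 41.7 and 55.03 against 104 and 108 TPM) and the feedback inhibitor Socs1 (4.47, 4.79 and 9.37 against 32.7 and 22.1 TPM) were higher, while Jak1 was at 55.3, 53.5 and 56.7 against 69.7 and 60.2 TPM and Stat3 was lower, at 177, 133 and 133 against 103 and 93.2 TPM. Values of near-identical copies, Tgtp1 and Tgtp2 for example, are uncertain, since reads between them are divided by estimate.

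More modest differences were seen in genes better known for type I interferon, 4 of 19 by at least 1 and 17 without overlap. Irf7 was at 26.2, 35.3 and 40.9 against 105 and 109.8 TPM. Ifit1 was at 8.06, 9.07 and 19.4 against 42.99 and 39.8 TPM. Vector tumor 4 was again the highest pigmented tumor in 18 of 19. MHC class I genes were higher in 13 of 16 without overlap and in 3 by at least 1. H2-K1, a classical class I heavy chain, was at 1811, 1935 and 2211 TPM against 6139.5 and 4950.1 TPM. B2m, its light chain, was at 3500.3, 3301 and 5393 against 10679 and 10526 TPM. Nlrc5, the class I transactivator, was at 46.4, 62.9 and 59.1 against 183 and 150.3 TPM. The chaperones Calr and Pdia3 were lower, by distances of 0.10 and 0.01. MHC class II genes, made mainly by antigen-presenting cells, had larger distances, 8 of 10 at least 1 with a median of 1.5. H2-Ab1 was at 465, 597 and 633 TPM against 3369 and 2923 TPM. Ciita, the class II transactivator, was at 8.13, 10.1 and 17.4 against 45.8 and 41.1 TPM.

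Chemokines for T cells and monocytes were among the lists with the largest distances. For CXCR3-type chemokines and receptors 9 of 10 were higher by at least 1, with a median distance of 2.41. Cxcr6, a receptor of tissue T cells, was at 2.83, 3.80 and 3.83 TPM against 47.9 and 36.5 TPM. Its ligand Cxcl16 was at 19.99, 20.8 and 21.9 against 161 and 159.8 TPM. In both, the pigmented tumors lay close together and far below the pair. Ccl5, which draws T cells, was at 44.1, 109 and 78.1 against 615 and 578 TPM. The monocyte chemokine Ccl8 was at 100.5, 199.9 and 125 TPM against 2132 and 1539 TPM. Ccr2, a chemokine receptor of monocytes, was at 9.42, 17.3 and 13.2 against 67.7 and 84.1 TPM. In none of these genes did a pigmented tumor reach a Pmel-low tumor.

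Myeloid genes were higher as well, with exceptions. Of 20 macrophage genes, 14 were higher by at least 1 and 2, Cd68 and Mertk, were lower without overlap. Lyz2, a lysozyme of monocytes, macrophages and neutrophils, was at 231, 366 and 245 TPM against 3009.8 and 3677 TPM, nearest values 8.22-fold apart. C1qa, a complement component made by macrophages, was at 289, 303 and 212 against 1197 and 1072 TPM. Adgre1, which encodes F4/80, was at 30.2, 22.4 and 21.98 against 94.2 and 88.1 TPM. The exceptions include a widely used marker. Cd68, a lysosomal protein also made by melanoma cells, was at 400.4, 411 and 218 against 162 and 158 TPM. Per Ptprc, Adgre1 (2.05, 1.17 and 1.26 against 0.916 and 0.924) and C1qa (19.6, 15.8 and 12.1 against 11.6 and 11.2) were lower in the Pmel-low tumors, while Lyz2 was higher (15.7, 19.1 and 14.03 against 29.3 and 38.5). Among monocyte genes Ly6c2 was at 14.2, 26.8 and 29.4 against 167 and 162 TPM. Neutrophil genes were low, 5 of 12 reached the mean of 1 TPM, and 4 of these were higher by at least 1. Of the latter, S100a8, Mmp9 and Il1r2 reached that mean only through the Pmel-low tumors, so they had to differ. S100a9, a calcium-binding protein of neutrophils, overlapped, at 0.48, 0 and 3.13 against 0.88 and 1.07 TPM. Its partner was higher, with S100a8 at 0, 0.52 and 0.51 against 3.44 and 3.25 TPM. Csf3r, the G-CSF receptor, was at 2.06, 2.24 and 1.73 against 15.4 and 14.3 TPM.

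Dendritic cell genes were mostly higher. For conventional type 2 and mature dendritic cells 9 of 12 were higher by at least 1, with the chemokine Ccl17 at 3.79, 4.34 and 6.19 TPM against 79.03 and 42.9 TPM. Ccl22 was at 3.17, 4.26 and 2.67 against 28.4 and 26.8 TPM. For cross-presenting type 1 cells 8 of 9 were higher without overlap, 1 of them by at least 1, namely Irf8 (25.98, 42.3 and 44.7 against 121 and 94.8 TPM), and Clec9a, a receptor for dead cells, was at 0.29, 1.36 and 1.82 against 7.60 and 3.25 TPM. Inflammatory NF-kB targets were higher in all 15 measured, 10 by at least 1. Tnf was at 0.86, 1.01 and 1.04 TPM against 14.2 and 14.2 TPM. Il1b was at 0.6, 1.03 and 0.71 against 11.9 and 23.1 TPM. Complement genes were higher in 11 of 14 by at least 1, with C3 at 42.6, 39.1 and 25.8 TPM against 406 and 244 TPM. The inhibitor Serping1 was at 37.97, 63.2 and 49.8 against 529.7 and 278 TPM.

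Further immune lists differed in the same direction in part. Nonclassical MHC class I genes were higher in 4 of 9 by at least 1, among them H2-T23, a ligand of inhibitory natural killer receptors, at 162, 187 and 269 against 909.6 and 635 TPM. Fc receptor genes were higher by that distance in 4 of 6 and without overlap in 5, with Fcgr4 at 15.1, 20.9 and 22.97 against 72.5 and 79.7 TPM. Leukocyte adhesion genes were higher by at least 1 in 7 of 11, without overlap in 8 and lower without overlap in 2, with Itgal, which pairs into LFA-1, at 5.43, 6.73 and 7.81 against 38.1 and 38.2 TPM. Cell death and inflammasome genes were higher without overlap in 12 of 14, by at least 1 in 6, with the death receptor Fas at 1.59, 1.73 and 1.65 against 16.03 and 11.6 TPM. Extracellular adenosine, which dampens T cells, was read from its enzymes and receptors. Adenosine genes were higher by at least 1 in 3 of 8, without overlap in 6 and lower in 2, with Nt5e, which encodes CD73, at 4.12, 5.05 and 8.90 against 28.4 and 24.8 TPM. In each of these 5 genes both Pmel-low tumors exceeded all 3 pigmented tumors.

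Genes of lymphoid tissue were higher in 7 of 9 by at least 1. Among these, Ccl19, Lta and Fut7 reached the mean of 1 TPM only through the Pmel-low tumors. Cxcl13, which draws B cells, was at 2.79, 4.22 and 2.28 TPM against 25.1 and 33.2 TPM. Ltb, lymphotoxin beta, was at 7.89, 11.7 and 8.03 against 83.7 and 56.9 TPM. Ccl21a, a chemokine of lymph nodes and lymphatic vessels, did not follow the division, being listed at 0 in vector tumors 1 and 3. It reached 3.78, 48.3 and 397 TPM in tumors 2, 4 and 5. B cell genes were low, and 7 of 10 missed the mean of 1 TPM. Cd79b, a subunit of the B cell receptor, was at 2.34, 4.25 and 2.81 against 15.8 and 24.2 TPM. Ms4a1, which encodes CD20, was at 0.06, 0.1 and 0.04 against 0.6 and 2.52 TPM. Vector tumor 5 was highest in both. Plasma cell genes overlapped in 7 of 14, with vector tumor 1 high, as for Igkc, the kappa constant region, at 189, 10.7 and 6.51 against 137 and 70.1 TPM.

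Antigen receptor sequences assembled from the same libraries gave 20 measures, of which 13 were higher without overlap in the Pmel-low tumors, 2 lower and 5 overlapping. The authors' numbers are not scaled to depth. T cell receptor beta (TRB) clonotypes, distinct receptor sequences, numbered 17, 23 and 19 in the pigmented tumors, 87 and 94 in the Pmel-low tumors and 5 to 9 in the Adamts7 tumors. TRB clones, the total behind them, numbered 20, 29 and 29 against 218 and 259. That is 1.18, 1.26 and 1.53 clones per clonotype against 2.51 and 2.76. TRB clonality, which is 0 for an even repertoire and nears 1 when few clones dominate, was 0.016, 0.0175 and 0.0411 against 0.143 and 0.17. Alpha chain clonotypes numbered 14, 13 and 13 against 51 and 72, and their clonality was 0.0308, 0 and 0.0097 against 0.102 and 0.0941. More receptors were thus assembled from the Pmel-low tumors, and here tumor 5 exceeded tumor 3 in clonotypes and clones of both chains. Clonality from 13 to 29 clones cannot be set against that from 89 to 259, since few clones leave most clonotypes single, so no difference in evenness is read from it. The same limit holds for clones per clonotype, and no expansion of clones is read from them.

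**Figure D3:**
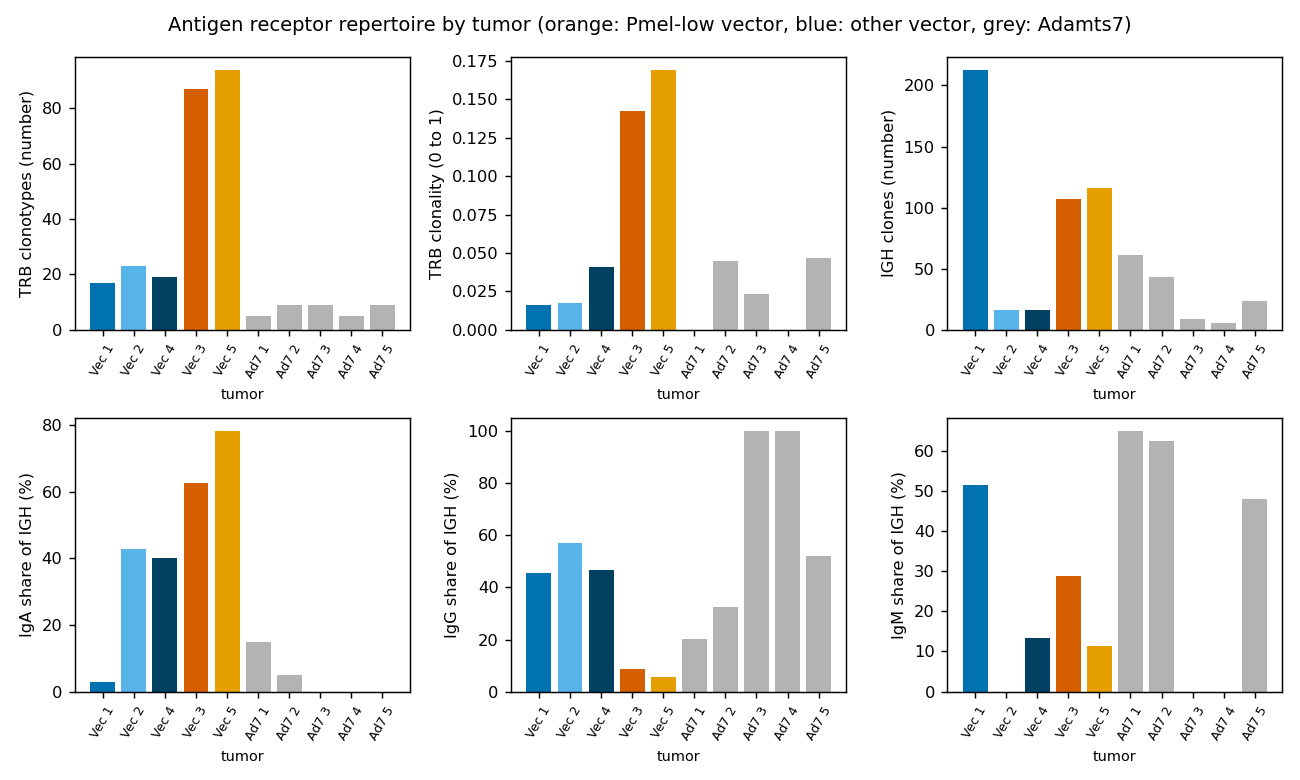
The 6 panels plot repertoire measures (y axes: numbers of TRB clonotypes and IGH clones, TRB clonality from 0 to 1, isotype shares in percent) by tumor (x axes), 1 bar per tumor. The Pmel-low tumors (orange and yellow) exceed all others in TRB clonotypes, TRB clonality and the IgA share, and have the lowest IgG shares, while vector tumor 1 has the most IGH clones.

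Immunoglobulin heavy chain (IGH) clones did not follow the division. Vector tumors 1, 2 and 4 had 213, 16 and 16 and the Pmel-low tumors 107 and 116. Their makeup did differ. IgA made up 2.94, 42.9 and 40 percent in the pigmented and 62.5 and 78.1 percent in the Pmel-low tumors, against 0 to 14.8 percent in the Adamts7 tumors. IgG made up 45.6, 57.1 and 46.7 percent against 8.65 and 5.71 percent, and IgG1 was at 0 in both Pmel-low tumors. Gene expression gave the same direction for IgA, with Igha, the IgA constant region, at 7.44, 4.30 and 3.38 TPM against 41.98 and 37.97 TPM. For IgG it did so only in part. Ighg1 was lower, at 13.3, 1.08 and 0.44 against 0.1 and 0.15 TPM. Ighg2b (26.8, 0.35 and 0.33 against 1.11 and 1.01 TPM) and Ighg2c (13.5, 0.11 and 0.58 against 13.5 and 0.42 TPM) overlapped. With 16 IGH clones each in vector tumors 2 and 4, their shares are coarse.

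Fibroblast and matrix genes were higher in part. Of 16 fibroblast markers 12 were higher without overlap and 6 by at least 1. Dcn, the proteoglycan decorin, was at 20.2, 57.5 and 39.7 TPM against 229 and 163 TPM. Lum, lumican, was at 10.4, 20.9 and 16.04 against 72.8 and 92.8 TPM. Both are made by fibroblasts. The collagens of scar tissue did not separate the sides as well, with Col1a1 at 166, 234 and 94.3 against 193 and 238 TPM. Col3a1 was at 214, 280 and 141 against 517 and 552 TPM. Col1a1 thus overlapped and Col3a1 did not. Thbs1, a matrix glycoprotein that can activate TGF-beta, was at 32.6, 38.2 and 40.2 TPM against 755 and 358 TPM, nearest values 8.89-fold apart. Mmp12, a macrophage elastase, was at 9.38, 17.3 and 9.77 against 151 and 46.4 TPM. Fmod, fibromodulin, was at 2.94, 6.89 and 3.16 against 82.6 and 20.2 TPM, in both with tumor 3 well above tumor 5. Endothelial markers overlapped in 10 of 14. Pecam1 was at 22.7, 33.8 and 20.4 against 40.9 and 28.3 TPM. Cdh5 was at 16.6, 22.4 and 11.5 against 16.3 and 13.2 TPM.

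Adamts7, the gene overexpressed in the other group, was higher in the Pmel-low vector tumors than in the pigmented ones, standing at 6.49, 6.98 and 8.57 TPM against 28.3 and 27.6 TPM, 3.22-fold apart at the nearest, and 18.2 to 96.02 TPM in the Adamts7 tumors. Adamts5, an aggrecan-cleaving relative, was at 5.97, 7.82 and 10.03 TPM against 45.1 and 34.9 TPM and 3.54 to 5.76 TPM in the Adamts7 tumors. Adamts14 was higher as well (4.59, 4.27 and 5.66 against 14.3 and 13.7 TPM), Adamts20, known for its role in melanoblast survival, was lower (10.2, 11.8 and 9.07 against 2.31 and 3.67 TPM), and Adamts12, the closest relative of Adamts7, overlapped (4.05, 5.17 and 4.22 against 3.97 and 4.84 TPM). The family therefore did not move as a whole, with 3 of 12 higher and 1 lower by at least 1.

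Genes of cell division and of glycolysis were lower in the Pmel-low tumors for the most part, mainly by less than 1. Of 15 mitosis genes 11 were lower without overlap and 4 by at least 1, and of 15 S phase genes 11 and 0. Plk1, a mitotic kinase, was at 69.4, 69.5 and 56.2 TPM against 19.9 and 23.9 TPM. Mcm2, a subunit of the replicative helicase, was at 129, 122 and 103 against 57.5 and 50.1 TPM. Mki67 (23.5, 26.1 and 30.9 against 26.9 and 29.9 TPM) and Top2a (90.8, 103 and 108 against 81.7 and 101 TPM) overlapped. Cenpe overlapped too, and Cenpf was higher by 0.08. Most proliferation genes were therefore lower but far from absent, and these were not lower. Eno1, a glycolytic enzyme, was at 3046, 2520.4 and 2313 TPM against 817 and 1007 TPM. The glucose transporter Slc2a1 was at 189, 117 and 161 against 42.8 and 53.4 TPM. Not all genes induced by low oxygen were lower, since Vegfa was at 94.4, 104 and 139 against 114 and 116 TPM and Pfkfb3, an activator of glycolysis, was higher, at 14.3, 13.9 and 14.6 against 30.2 and 23.6 TPM. Vegfa overlapped. Ppargc1a, a regulator of mitochondrial genes that MITF controls, was at 9.51, 19.4 and 6.82 against 0.63 and 1.66 TPM. Of 18 nuclear respiratory genes 9 were lower and 4 higher without overlap.

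**Figure D4:**
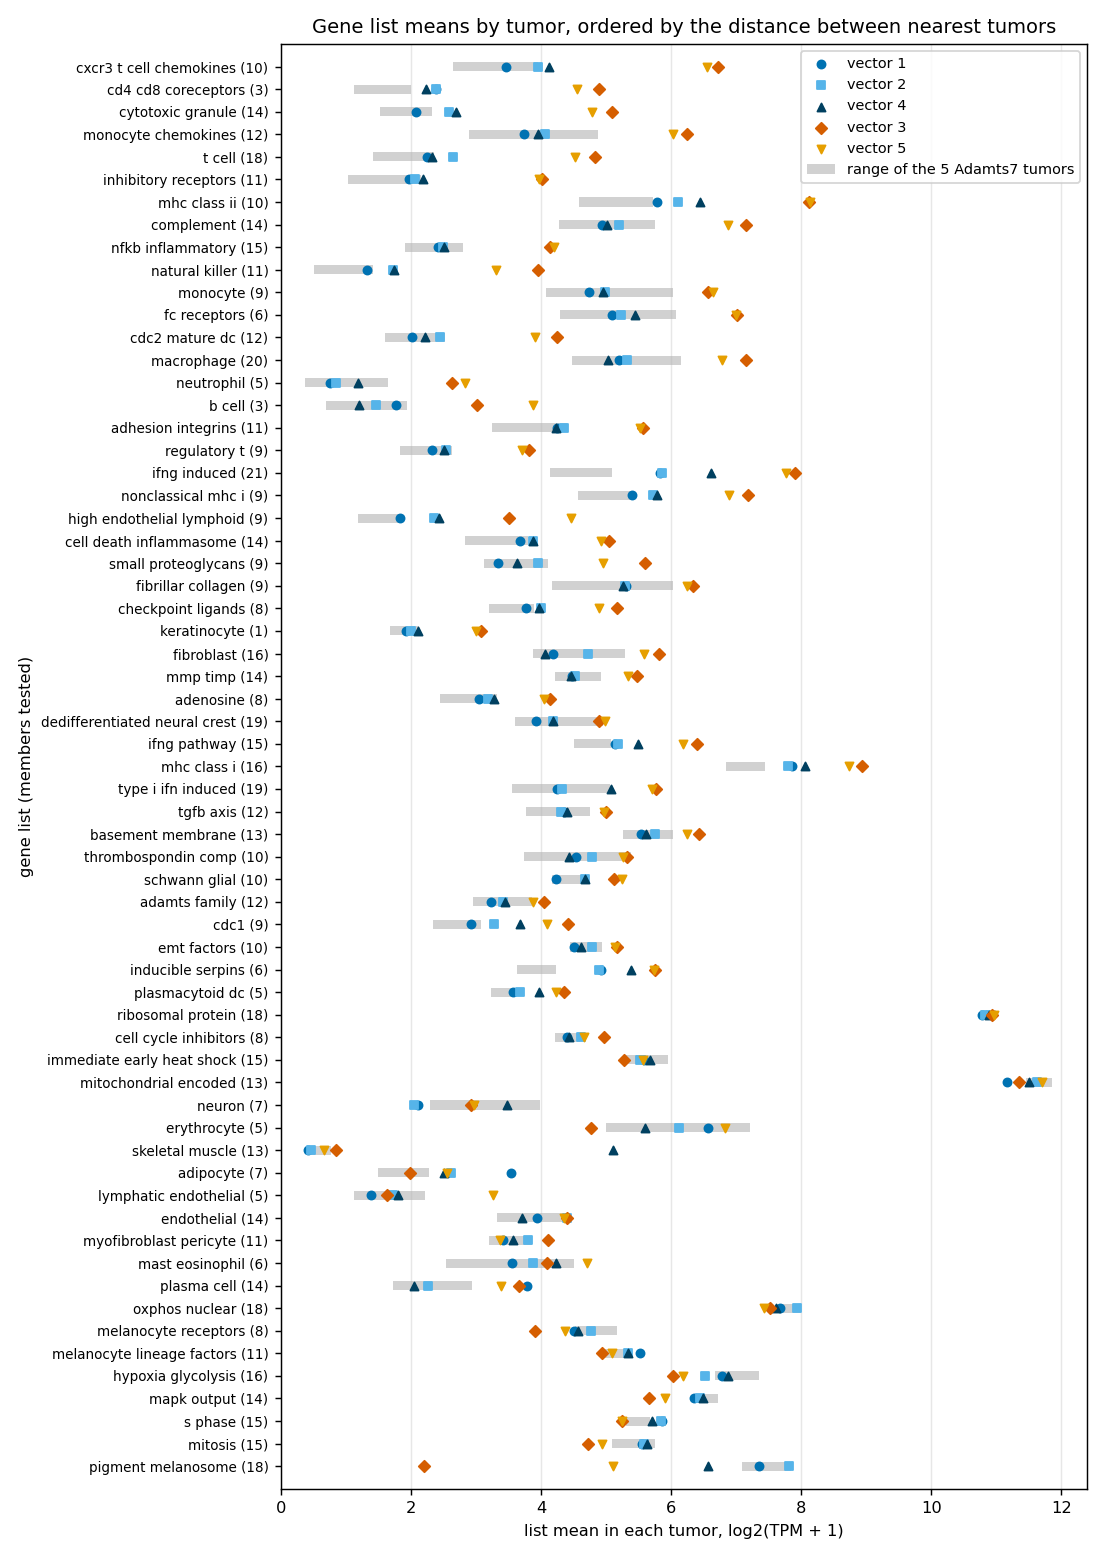
Mean log2(TPM + 1) of the measured members of 63 gene lists (x axis) in each vector tumor, 1 row per list with its number of members, ordered by the distance between the nearest tumors, and grey bars for the range of the 5 Adamts7 tumors. Immune lists fill the top rows with the orange and yellow Pmel-low tumors to the right, and the pigment list stands in the lowest row with them to the left.

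Over the 63 lists, the mean of 44 was higher without overlap in the Pmel-low tumors, 23 of them by at least 1. The mean of 8 was lower, the pigment list alone by at least 1, and 11 overlapped. Lists that read RNA quality showed no distance near 1. The mean of 13 mitochondrially encoded genes was 11.16, 11.63 and 11.50 against 11.35 and 11.70, that of 18 ribosomal protein genes 10.77, 10.82 and 10.89 against 10.94 and 10.96, and that of 15 immediate early and heat shock genes 5.59, 5.53 and 5.67 against 5.27 and 5.56. Markers of neighbouring tissue were also read. The summed TPM of 13 skeletal muscle genes was 6.16, 9.56 and 627 against 20.4 and 13.4, high in vector tumor 4 alone. That of 5 red blood cell genes was 1090, 870.5 and 534 against 290 and 1499, with the Pmel-low tumors at either end. Krt5 and Krt14, which define basal skin cells, were at 0 in all vector tumors but tumor 5, where they stood at 0.1 and 0.05 TPM. Other keratinocyte genes were mostly low, and none was lower without overlap in the Pmel-low tumors. Krt10, Krt17, Dsp, Trp63, Sfn and Perp were higher without overlap. Krt15, Lor and Flg overlapped, and Dsg3 was at 0 in all vector tumors. Krt10 was at 0.39, 0.39 and 0.73 against 1.23 and 2.14 TPM, and Trp63 at 0, 0.13 and 0.08 against 3.28 and 1.02 TPM. Sfn, the only member to reach the mean of 1 TPM, was at 2.78, 3.01 and 3.32 against 7.40 and 6.96 TPM. Adipocyte genes overlapped in 6 of 7.

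The named genes with the largest distances over the whole table, predicted genes left out, were of mixed kinds. Scube3, a secreted signaling protein, led among the higher genes, at 0.81, 1.28 and 0.8 TPM against 82.2 and 37.97 TPM. Stum was at 0.64, 0.61 and 0.44 against 30.2 and 22.97 TPM. Cadps, a factor of vesicle release, was at 1.38, 2.29 and 1.82 against 44.99 and 44.4 TPM. All 3 were low in the pigmented tumors. Crabp2, a carrier of retinoic acid, was at 1.33, 2.24 and 3 against 64.5 and 48.2 TPM. Penk, the enkephalin precursor, was at 2.17, 6.43 and 2.23 against 160.1 and 81.5 TPM. Saa3, an acute phase protein, was at 4.40, 10.1 and 1.47 against 133 and 159 TPM. The Adamts7 tumors held 0.28 to 0.74 TPM of Scube3 but 0.68 to 33.01 TPM of Penk, so Penk was not confined to the Pmel-low pair. Ly6i, Prkg2, Plac9, Apol7c, Tnn and Prl2c2 complete the 12 genes, with distances of 3.37 to 3.63.

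Among lower genes, Slc25a34, a mitochondrial carrier, had the largest distance, at 26.3, 25.3 and 23.7 TPM against 0.11 and 1.64 TPM. Gpd1, which links glycolysis to lipid synthesis, was at 122, 115 and 92.6 against 5.80 and 10.5 TPM. Car6, a secreted carbonic anhydrase, was at 447, 561 and 568 against 2.85 and 60.3 TPM. Gpd1 and Car6 were abundant on the pigmented side. Cited1, a transcriptional coregulator of pigment cells, was at 469.9, 382 and 283 TPM against 1.12 and 43.4 TPM. In each of these 4 genes tumor 3 was lower than tumor 5, as among pigment genes. Plagl1, an imprinted zinc finger gene, was an exception, at 65.4, 49.6 and 29.7 against 3.56 and 2.34 TPM. Pla2g2e, Cntfr, Slc6a17, Pgf, Prss12, Tyrp1 and Dnai1 complete the 12, at distances of 2.61 to 2.98.

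Differences between the Pmel-low tumors were few but wide, and were looked at after the values were seen. By at least 1, 364 genes (2.34%) were higher in tumor 3 and 316 (2.04%) in tumor 5. Tumor 5 was higher in 13 of 18 pigment genes by at least 1. Tumor 3 was higher in 11 of 11 natural killer genes, 15 of 18 T cell genes and 17 of 21 interferon-gamma genes, mostly by less than 1. Among all 1201 genes higher in both by at least 1, tumor 3 was already the higher of the pair in 67.2%. It also had more of several myeloid genes. Rnase2a, an eosinophil-type ribonuclease also made by macrophages, was at 148 TPM in tumor 3 and 1.11 TPM in tumor 5, Ccl24, an eosinophil chemokine, at 20.4 and 1.14 TPM, and Chil3, a marker of alternatively activated macrophages, at 44.3 and 3.94 TPM. Contractile genes were higher there too, Mylk at 124 and 23.4 TPM and Myl9 at 184 and 38.96 TPM. In tumor 5, Ccl21a and Ccl21b led, the latter at 104 TPM and listed at 0 in tumor 3, although these near-identical copies may share reads. The mean of 5 lymphatic vessel genes was 3.26 in tumor 5 and 1.62 in tumor 3, and all 5 red blood cell genes were higher in tumor 5 by at least 1.

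Among the 1201 higher genes the pigmented tumor nearest to the Pmel-low pair was vector tumor 2 in 606, tumor 4 in 446 and tumor 1 in 149. Among the 455 lower genes it was tumor 4 in 252, tumor 2 in 153 and tumor 1 in 50. Tumor 4 was the lowest pigmented tumor in 17 of 18 pigment genes (94.4%), against 34.1% of all genes. For T cell genes it was the highest pigmented tumor in 0 of 18 and vector tumor 2 was the nearest to the pair for Cd3e. Tumor 4 therefore lay toward the Pmel-low tumors in pigment and interferon genes and not in the 18 T cell genes. Cytotoxic genes were mixed. Their list mean was 2.07, 2.58 and 2.69 in tumors 1, 2 and 4. Ifng was highest in tumor 4 of these 3, at 1.5, 2.52 and 4.52 TPM, and Prf1 lowest, at 2.10, 1.75 and 1.5 TPM. Tumor 4 was also the tumor with the muscle transcripts, whose part in its position was not tested.

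Because the hosts were female, transcripts of the Y chromosome can come only from implanted cells of a male line, and Xist, which is made from the silenced X chromosome, mainly from female host cells. These genes were chosen after the values of others were seen. Xist was at 4.93, 8.11 and 5.88 TPM in the pigmented tumors, 39.2 and 34.6 TPM in the Pmel-low tumors and 2.77 to 10.5 TPM in the Adamts7 tumors, 4.27-fold apart at the nearest. As for Ptprc, the Pmel-low tumors were the 2 highest of all 10. The Y-linked genes come from the implanted cells, but their level per implanted cell was not measured. Ddx3y was at 19.9, 20.6 and 24.1 TPM against 23.3 and 23.2 TPM. Uty was at 6.47, 5.26 and 6.65 against 6.09 and 6.08 TPM. Eif2s3y was at 30.6, 45.2 and 51.4 against 40.8 and 39.1 TPM, each with overlap. Kdm5d was at 6.13, 5.99 and 7 against 4.68 and 5.83 TPM, lower by 0.03. Of the 4 Y-linked genes, 3 overlapped between the sides, and Xist was higher in the Pmel-low tumors. What part host RNA had in the lower values of Sox10 and the pigment genes was not tested. The tumor labelled Adamts7 5 was low for all 4, Uty at 1.26 TPM, while it held 494 TPM of Sox10. The amount of implanted cells was therefore not read from Y-linked transcripts.

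Chromosomes were compared as a last reading, also chosen after values were seen. For 11191 genes averaging 5 TPM or more and with a chromosome in the RefSeq table, of 11492, each gene's deviation from its centre over the tumors was taken. The median deviation was found per chromosome and tumor, and the same tumor's median over all chromosomes was subtracted from it. Chromosome 15 stood apart. Its median was 0.106, 0.024 and 0.047 in the pigmented tumors and -0.29 and -0.236 in the Pmel-low tumors, and -0.04 to 0.043 in the Adamts7 tumors, on log2(TPM + 1). Of its 460 genes, 279 (60.7%) were lower without overlap in the Pmel-low tumors, against 37.4% over all chromosomes. The distance of the medians was -0.26, and -0.244 over its 387 genes that themselves differed by less than 1. For the latter, the median subtracted was that of such genes on all chromosomes. Chromosome 1 lay the other way, at -0.047, 0.055 and -0.032 against 0.251 and 0.194, a distance of 0.139, and there the tumor labelled Adamts7 5 stood at 0.22 as well. Sox10 lies on chromosome 15, and copy number was not measured.

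**Figure D5:**
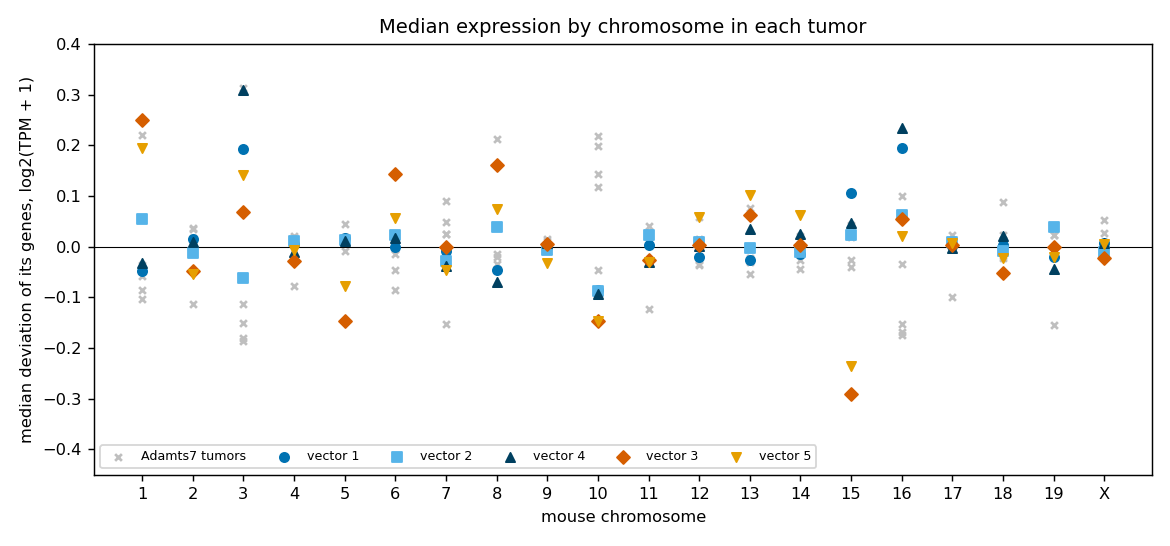
Median deviation of the genes of each chromosome, less the same tumor's median over all chromosomes (y axis, log2(TPM + 1)), by mouse chromosome (x axis), with 1 point per tumor. The orange and yellow points of the Pmel-low tumors lie lowest on chromosome 15, at -0.29 and -0.236, apart from all other tumors.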

How the data were processed

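Per the labels' protocols, total RNA of each tumor received ERCC spike-ins, was poly(A)-selected and was sequenced on a NovaSeq as paired reads with molecular identifiers. The submitters' processing notes name RSEM, DESeq2 and the build mm39 without versions. The authors deposited log2(TPM + 1) values, which were turned back into TPM, and a table of repertoire numbers, entropies, clonalities and fractions per tumor. The authors' deposited fold change table, with log2 fold changes and p-values, was not used. TPM keeps no depth, so no counting interval is given.

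The 5 vector tumors were divided at 500 TPM of Pmel. The 15524 of 29890 genes that averaged 1 TPM or more in them were compared by the distance between the nearest tumors on log2(TPM + 1), pseudocount 1, with a distance of 1 called. The division uses a readout, so nothing was tested. Where nothing says tumors came from separate mice, the spread between tumors may be partly technical. No pair of tumors held identical values.

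Members and gene lists were chosen with earlier results of these data known. Genes were named by a rule (the marker genes, up to 12 largest distances each way, up to 4 members per list), and further members of lists were named after their values were seen. Promoters came from the RefSeq table (GRCm38.p6), in which 10726 of 15524 genes matched by symbol. The distance was checked on simulated data. Python 3.11.15, pandas 2.3.3, numpy 2.4.6 and matplotlib 3.10.9 were used. Alternatives were other pseudocounts, filters, scalings and thresholds, and leaving out each tumor.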

Additional observations from a re-analysis of the deposited data

Results flagged for a closer look

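A tumor far from the rest of its group was looked for in 63 list means per group, 23 ratios, 20 repertoire measures and 12 genes, and chance flags about 1 in 20 groups. Among the vector tumors, tumor 5 had a mean of 3.26 on log2(TPM + 1) for lymphatic vessel genes, against 1.38 to 1.80 in the others. Vector tumor 4 had a mean of 5.10 for skeletal muscle genes, against 0.408 to 0.843. Among the Adamts7 tumors, tumor 4 had a mean of 4.16 for Schwann and glial genes, against 4.56 to 4.65. The tumor labelled Adamts7 5 stood apart in 3 values, with an IgG1 fraction of 0.522 of IGH against 0 to 0.125, Sox10 at 494 TPM against 705 to 725 TPM, and Adamts7 at 18.2 TPM against 74.8 to 96.0 TPM. Ptprc in Adamts7 tumor 1 was at 23.4 TPM against 6.11 to 11.1 TPM. Neither vector tumor 3 nor vector tumor 5 stood apart in this way in Pmel, Cd8a, Ifng, Cd3e or Sox10. The search finds a single tumor far from all others, and tumors that are extreme together hide each other. So nothing about the pair is read from this.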

How the results depend on the processing

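No paired analysis was possible because the results come from no test. Against 1201 genes higher and 455 lower by at least 1, a pseudocount of 5 gave 666 and 274, any distance above 0 gave 5179 and 4854, and a distance of at least 2 gave 241 and 56. The share of higher genes was 72.5% at first, 63.1% after quantile scaling, 51.6% at any distance and 81.1% at a distance of 2. Leaving out each tumor gave 1286 to 1571 higher and 493 to 763 lower genes, with 706 lower without vector tumor 4 and 763 without vector tumor 5. With fewer tumors the distance can only grow. Leaving out each tumor gave 53 to 57 lists without overlap against 52, with all 52 in the same direction, 177 to 192 named genes past 1, and 15 to 18 repertoire measures without overlap. Under a pseudocount of 5, median-of-ratios scaling or quantile scaling 1 list came to overlap. Of 245 named genes without overlap, 2 overlapped under median-of-ratios and 6 under quantile scaling. The counts of genes stayed within 1.5 times under the other settings (pseudocount 0.1, no filter, a mean of 5 TPM, median-of-ratios, quantile). Single values moved more: over all alternatives, 561 distances of lists, genes and repertoire measures moved by more than the spread of the pigmented tumors and 2329 did not. Under these settings no direction reversed. Division by Sox10, chosen after seeing the data, left 2 of 14 pigment genes lower by at least 1 and turned Atp7a from lower to higher by 0.19.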
